A study of Mus musculus with 141 samples.

Results

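Gene expression was measured by RNA-seq in the livers of 47 strains of the Collaborative Cross (CC), with 1 adult male and 1 liver library per strain. The CC strains were inbred after crossing the same founder strains in different orders, so each carries its own fixed mosaic of the founder genomes. The 47 liver libraries were taken from the 141 libraries of the series, and the remaining libraries are the kidney and the lung of the same mice. Every mouse was 8 to 12 weeks old, was fed an NTP wafer diet and spent 6 hours a day on weekdays in chambers supplied with clean air before tissue collection under nembutal anaesthesia. The labels name no engineered allele, no other agent, no batch and no clock time of collection. The authors fitted sequencing batch as a covariate, but the labels do not assign libraries to batches, so values here were not adjusted for it. With 1 mouse per strain, the spread between livers holds strain, individual mouse, handling, sequencing batch and counting error together. These cannot be told apart. A gene was counted as tested where it exceeded 1 CPM (counts scaled to library size after TMM normalisation, which corrects for the makeup of each library) in at least 24 of the 47 livers, and 8775 of the 24423 genes in the files did so.

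The liver makes most plasma proteins, handles fuels between meals and fasting, and clears drugs, hormones and bile acids. Several of these programmes are known to be set by signals from outside the cell: cytokines raise acute-phase proteins, fatty acids act through PPAR-alpha, foreign compounds through CAR and PXR, pulsatile growth hormone keeps a male pattern of secretory and P450 genes, and the circadian clock moves many transcripts across the day. Other hepatocyte genes sit in clusters of recently duplicated copies, such as the major urinary proteins and the serpins, in which inbred strains are known to differ.

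Livers differed widely in depth. Total counts ranged from 1738046 to 42158454 per library, with a median of 10423382. The precursor ribosomal RNA gene Rn45s took between 0.321% and 69.0% of the counts (median 34.9%), and Lars2, a mitochondrial tRNA synthetase gene, between 0.0196% and 21.3% (median 9.31%). The shares of Rn45s and Lars2 rose together over the livers (r = 0.89). Whether all reads assigned to Lars2 come from its mRNA was not tested. The counts outside these genes, which carry the information on all others, ran from 491533 to 37259801, with a median of 4562946. A value of 3 counts, taken as the limit of what a library resolves, stood for 0.0506 to 2.94 CPM, and this limit covers counting error only. Liver values rose with the Rn45s share of the library in 179 of the 8775 tested genes, which is 2.04%, and fell with it in 504, which is 5.74% (permutation test, q at most 0.05). Without CC033, CC036 and CC029, the 3 livers with the fewest such counts, 93 rose and 260 fell. Among the most variable 10% defined next, 20 genes rose and 11 fell with that share.

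For each gene the coefficient of variation (CV, SD divided by mean) of CPM over the 47 livers was divided by the median CV of the genes nearest to it in mean expression, and the quotient is called the relative CV. The median tested gene had a CV of 0.26, and 5% of genes lay below 0.132 and 5% above 0.791. Counting error alone would give a median CV of 0.109, and of 0.0693 among the 4728 genes with a mean of at least 10 CPM. The most variable 10% of the tested genes (878 genes) began at a relative CV of 2.057, and the first gene outside it had 2.056. The least variable 10% (again 878 genes) ended at 0.7163, and the first gene outside it had 0.7165. Both sets are chosen by these values and are described without a test.

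**Figure D1:**
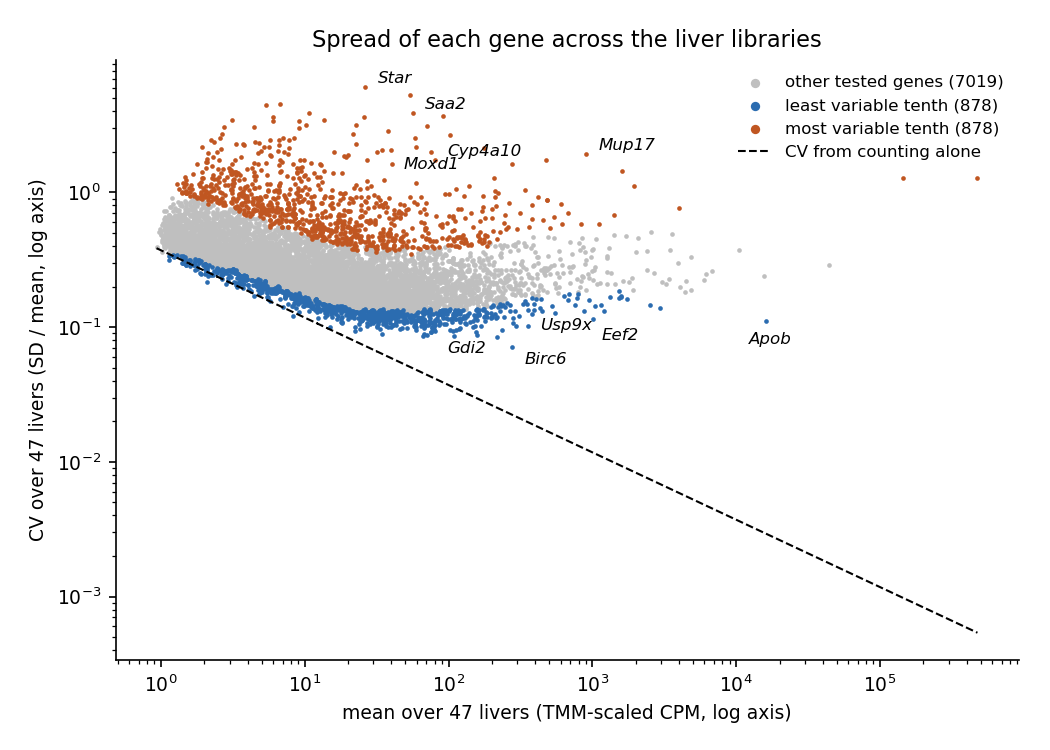
Coefficient of variation of each of the 8775 tested genes over the 47 livers (vertical, log axis) against its mean in TMM-scaled CPM (horizontal, log axis), with the most variable 10% in orange, the least variable 10% in blue and the CV that counting error alone would give as a dashed line. Star and Saa2 lie at the top of the plot and Birc6 at the bottom, and the abundant gene Apob sits in the blue set. The orange points at the far right are Lars2 and Rn45s.

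The largest relative spread among genes that were not high in just 1 liver was that of Saa2, which encodes serum amyloid A2, an acute-phase apolipoprotein, and lies at chr7:54007203-54009684 of NCBIM37. Its lowest, median and highest levels were 0.398, 7.42 and 1365 CPM. The livers of CC004 and CC016 stood apart with 1365 and 660 CPM, and no other liver exceeded 134.5 CPM. Lcn2, the siderophore-binding lipocalin of the same response, ran from 0.228 through a median of 2.46 to 252 CPM, and the same livers were highest, at 252 and 216 CPM. Saa1 and Orm2 were among the genes set apart by 1 liver, at 2265 and 633 CPM in CC004 against at most 649.5 and 173.4 CPM elsewhere. Orm3, an orosomucoid gene beside Orm2, had another pattern. It was at least 43.3 CPM in 7 livers (CC021, CC019, CC055, CC015, CC028, CC038 and CC049) and at most 22.9 CPM in the other 40.

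Some of the most variable genes were near 0 or low in many livers and much higher in others, as the plot of levels in each liver shows. Hamp2, a paralogue of the hepcidin gene, at chr7:31707391-31709200, had a median of 3.90 CPM, but 8 livers had at least 251.7 CPM (up to 591 in CC003) and the other 39 at most 81.3. Moxd1, a monooxygenase related to dopamine beta-hydroxylase, gave at most 3 counts in 17 livers and at least 144.6 CPM in CC040, CC007, CC028, CC017 and CC020. Livers outside these 5 reached 89.3 CPM, and 15 livers exceeded 10 times the Moxd1 median. Dmbt1, a secreted scavenger receptor of epithelia, gave at most 3 counts in 12 livers and at least 31.1 CPM in 11 others, with at most 23.99 CPM in the livers outside these 11. Gstp3, a pi-class glutathione transferase gene, was at least 106.7 CPM in CC057, CC043 and CC031 and at most 15.8 CPM in the other 44 livers. Fam129b was at least 60.5 CPM in CC039, CC040 and CC068 and at most 21.1 CPM elsewhere. Neither Gstp3 nor Fam129b was near 0 in many livers, with medians of 7.99 and 7.64 CPM. For Hamp2, Gstp3 and Fam129b the high livers were set off from the rest by a wide gap, which Dmbt1 lacked.

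Secreted and structural genes were also in this group. Col5a2, a chain of fibrillar collagen V at chr1:45431166-45560127, had a median of 8.28 CPM and reached 637, 445 and 420.6 CPM in CC017, CC024 and CC015. In 7 livers it exceeded 10 times its median. The keratin gene Krt23 was at least 29.1 CPM in 7 livers and at most 18.1 CPM in the others. Cyp46a1, the cholesterol 24-hydroxylase known from brain, was at least 27.2 CPM in 9 livers and at most 22.8 CPM in the others. Metallothionein Mt1, which binds zinc and copper, ran from 1.06 through a median of 31.1 to 360 CPM in CC004. The next highest liver, CC015, had 181.5 CPM.

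**Figure D2:**
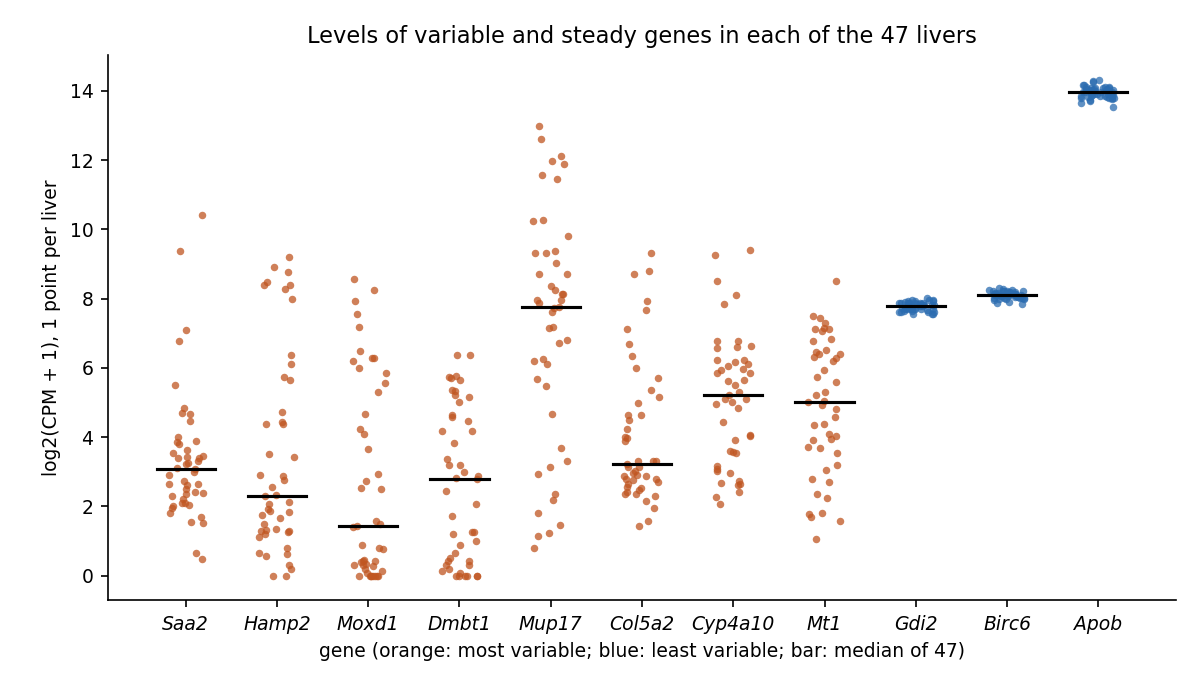
Level of 8 of the most variable genes (orange) and 3 of the least variable (blue) in each of the 47 livers, on a log2(CPM + 1) scale with 1 point per liver and a bar at the median. Hamp2 and Mup17 show a separate upper group of livers, Mt1 and Cyp4a10 spread without one, and Gdi2, Birc6 and Apob stay within a narrow band.

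Major urinary proteins, the pheromone carriers that male liver secretes in bulk, formed the family with the widest ranges. Of 11 tested members 10 were in the most variable 10%, against the 10% of all tested genes, and the exception was Mup3 with 28.1 to 6451 CPM and a relative CV of 1.97. Mup17 at chr4:61252961-61256903 went from 0.719 through 215 to 8139 CPM, and 7 livers (CC055, CC015, CC019, CC031, CC021, CC028 and CC038) had at least 2824 CPM while the other 40 had at most 1229. Mup18 had a median of 8.98 CPM and at least 550 CPM in a different set of 7 livers (CC039, CC042, CC037, CC006, CC029, CC053 and CC061). Of the 7 livers high for Mup17, all but CC031 were also among the 7 high for Orm3. Mup20, known as darcin, ran from 1.97 through 907 to 8964 CPM. Mup6 was 1887 CPM in CC041, 516 CPM in CC040 and had a median of 1.96 CPM. These genes share sequence: of the 50-base windows of their transcripts, 50.2% occur once in the genome for Mup17, 42.7% for Mup18 and 41.2% for Mup20, against 96.2% for Mup6. With uniquely aligned 50-base reads, levels of single Mup genes other than Mup6 are therefore uncertain. Summed over the family, the livers ranged from 557 CPM in CC016 through a median of 8034 to 22230 CPM in CC031.

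Genes with a known male bias were more variable than the median gene, with 11 of 15 in the most variable 10% and a median relative CV of 2.66. Serpina1e, an alpha-1-antitrypsin copy, covered 1.14 to 7626 CPM around a median of 16.8, with 66.5% of its windows unique. Cyp7b1, an oxysterol 7-alpha-hydroxylase, ran from 29.4 to 2048 CPM, Elovl3, a fatty acid elongase, from 6.75 to 365 CPM, and Hsd3b5, a steroid-reducing enzyme of male liver, from 1.23 to 359 CPM. Among glutathione transferases 12 of 17 were in the most variable 10% and among cytochromes P450 33 of 58, with median relative CVs of 2.61 and 2.39. Cyp2a4, a testosterone 15-alpha-hydroxylase higher in females, gave at most 3 counts in 9 of these male livers and 355.5 CPM in CC027. Cyp2e1, the abundant ethanol-oxidising P450, was in neither set at 2460 to 11130 CPM.

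Ligand-driven programmes stood in the same direction. Of 25 tested acute-phase genes 16 were in the most variable 10% and 0 in the least variable, with a median relative CV of 2.63. The abundant fibrinogen gene Fgb (2396 to 9193 CPM) was not among them. Of 23 tested PPAR-alpha targets 10 were in the most variable 10%. The fatty acid omega-hydroxylases Cyp4a10 and Cyp4a14 had the widest ranges, from 3.20 through 36.3 to 676.5 CPM and from 0.0778 through 8.79 to 1659 CPM, and CC015 was highest for both. Hadha of mitochondrial beta-oxidation, on the same list, was in the least variable 10%, at 181.8 to 393 CPM. Of 14 CAR and PXR targets 10 were in the most variable 10%. Cyp2b10, the classical CAR target, ran from 0 through 3.43 to 63.1 CPM and Cyp3a11, the classical PXR target, from 142 through 532 to 2117 CPM. Por, the reductase that supplies P450s with electrons, ran from 43.1 to 674 CPM with CC015 highest.

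Genes of lipid, bile acid and fuel metabolism were spread over both ends. Of 17 tested lipogenic genes 8, and of 21 sterol synthesis genes 7, were in the most variable 10%, with median relative CVs of 1.89 and 1.88. Scd1, the stearoyl-CoA desaturase, ran from 333 through 2986 to 14000 CPM and Fasn, fatty acid synthase, from 170 through 506.5 to 2208 CPM, with CC006 highest for both. Sqle, the squalene epoxidase, ran from 12.6 to 133 CPM. In bile acid metabolism 4 of 16 genes were in the most variable 10%, among them Cyp7a1, the rate-limiting enzyme of bile acid synthesis, at 25.6 through 134.5 to 666 CPM. The bile acid uptake carrier Slco1b2 (898.5 to 2163 CPM) was in the least variable 10%. Of 14 genes of glucose and glycogen metabolism 6 were in the most variable 10%, and glycogen phosphorylase Pygl (263 to 541 CPM) was in the least variable. Amino acid catabolism had 4 of 27 genes in the most variable 10%, a share of 14.8% near the background of 10%.

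Immediate-early genes had 11 of 12 tested members in the most variable 10%, including Fos (0.784 to 22.6 CPM), Egr1 (1.23 to 77.9 CPM) and Jun (11.7 to 119.5 CPM). Of 14 clock genes 6 were in it, led by Ciart, a repressor of the clock, at 0.214 through 4.92 to 24.1 CPM. Of 12 heat shock chaperones 6 were in it, and CC015 was the highest liver for all 12. Proliferation genes, with 1 of 9, and coagulation factors, with 2 of 21 in the most variable 10%, were near the background of 10%. The p53 targets had 0 of 5, a list too small to set against that background. In the least variable 10% coagulation had 5 of 21 genes (23.8%). Among them were prothrombin F2, at 888.7 to 1535 CPM, antithrombin Serpinc1, at 963.7 to 2067 CPM, and plasminogen Plg, at 903.6 to 2629 CPM.

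The steadiest gene was Birc6, a very large ubiquitin ligase that restrains caspases, at chr17:74927635-75103113. It ranged from 228 to 313.5 CPM, which is a 1.37-fold range over 47 strains, and its CV of 0.0707 compares with 0.0224 from counting alone. Gdi2, which recycles Rab GTPases, had a CV of 0.0852 and ranged from 186 to 258 CPM. Other genes among the 20 with the lowest relative CV were the ubiquitin enzymes Usp9x, Huwe1, Usp7, Nedd4 and Maea, the clathrin heavy chain Cltc, the GTPases Rab10 and Rac1, elongation factor Eef2 and the spliceosomal helicase Snrnp200. With total counts in place of TMM scaling, 12 of the 20 stayed in the least variable 10%, and Eef2, Snrnp200, Nedd4 and Maea were among the 8 that did not. Apob, the structural protein of secreted lipoproteins, was also in this set of 20. It ranged from 11780 to 20410 CPM with a CV of 0.112, while Alb ranged from 20810 to 90950 CPM. Among whole machineries the largest shares in the least variable 10% were 4 of 13 aminoacyl-tRNA synthetases (30.8%), 13 of 45 translation initiation factors (28.9%), 7 of 33 genes of RNA polymerase II and Mediator (21.2%), 10 of 51 vesicle coat genes (19.6%) and 7 of 36 proteasome genes (19.4%). Cytosolic ribosomal proteins were below the background of 10% at both ends, with 4 of 67 in the least and 2 of 67 in the most variable 10%. The hepatocyte marker list had 13 tested members, of which 1 (Tat) was in the most variable 10%, and its summed level ran from 63800 CPM in CC031 to 152800 CPM in CC020.

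A different pattern, chosen for description after the values were seen, was that of genes that were abundant in most livers and close to 0 in a few. Of 3077 tested genes with a median of at least 20 CPM, 18 gave at most 3 counts in at least 1 liver, and 9 of them in exactly 1. Of these 18 genes 16 were in the most variable 10%, and the exceptions were Ahsg and Cfb. Ahsg, the plasma protein fetuin-A at chr16:22892115-22899511, gave 1 count in CC057, where its median level would give 2646 counts, and at least 199 CPM in each of the other 46 livers. Cfb, complement factor B at chr17:34993319-34999463, gave 0 counts in the liver of CC027, where its median level would give 228. The kidney of the same mouse also gave 0 counts of Cfb, against a median of 83 in kidney, and its lung 2 counts, against a median of 15. Snord15b gave 1 count in CC015 liver, 1 in its kidney and 2 in its lung, against medians of 248 in kidney and 614 in lung. Slc22a30, a transporter with 47.8% of its windows unique, gave 0 and 2 counts in the livers of CC031 and CC043 and 3 and 6 in their kidneys, against a kidney median of 774. For Cfb, Snord15b and Slc22a30 the low value was thus seen again in other tissue of the same animal. Ahsg is barely measured outside liver (medians of 2 counts in kidney and 3 in lung). Other genes of the 18 went the other way in CC039. There BC089597 gave 1 count in liver and 1306 in kidney, against a kidney median of 492. Sdr9c7 gave 0 counts in that liver and 91 in its lung, against a lung median of 11. All tissues of a strain were aligned to its own pseudo-genome, and the part of alignment was not tested.

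In 332 of the 8775 tested genes (3.78%) an exact split of the 47 livers into 2 clusters of CPM set 1 library apart. They made up 21.98% of the most variable 10% (193 genes). The CC016 liver accounted for 165 of the 332, CC015 for 45, CC006 for 28, CC033 for 21 and CC031 for 19. Each of these livers is 1 animal.

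The CC016 liver was high for genes of antigen presentation and interferon-gamma response. Summed over 11 MHC class II genes, which present peptides to CD4 T cells, it had 1340 CPM against a median of 49.7, and H2-Aa alone reached 756 CPM against a median of 19.8. Over the interferon-inducible GTPases, which act against intracellular microbes, it had 1610 CPM against 119, with Igtp at 463.5 and Gbp2 at 215 CPM. Cxcl9, a chemokine induced by interferon-gamma, was 292 CPM against at most 15.6 elsewhere. The sum of the macrophage markers was 1399 CPM against 260, of the neutrophil markers 34.01 against 0.927 and of the T and NK cell markers 33.6 against 3.46, each the highest of the 47. In bulk liver, more cells of a type and more RNA per cell cannot be told apart. The same liver was the lowest of 47 for the Mup sum, for the male-biased list (1952 against 10340 CPM), for P450s (9941 against 14650 CPM) and for PPAR-alpha targets (3765 against 6255 CPM). Its kidney and lung were also the highest of 47 for the interferon-inducible GTPases, at 2251 CPM against a kidney median of 85.04 and 2838 CPM against a lung median of 283. All 10 tested GTPases and all 6 tested class II genes were in the most variable 10% with this liver, and 4 and 4 were without it.

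The CC015 liver was the highest for heat shock chaperones, at 5353 CPM against a median of 1940, and so were its kidney (8342 against 4515 CPM) and its lung (7542 against 2582 CPM). It was also highest for a list of glucocorticoid and fasting genes added after the values were seen, at 12870 against 3754 CPM. Igfbp1, an insulin-suppressed binding protein, was 1036 CPM there against a median of 34.6, Tat, the glucocorticoid-induced tyrosine aminotransferase, 4046 against 885, and the glucocorticoid co-chaperone Fkbp5 202 against 29.9. Its lung was again the highest of 47 for this list (1293 against 318 CPM) and its kidney the third highest. The CC004 liver was the highest for acute-phase genes, at 32070 against 10190 CPM. Its kidney and lung ranked 8th and 13th for that list, whose levels there are low. The CC006 liver was highest for lipogenic genes, at 20300 against 6093 CPM.

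Transcripts known from other organs were present in some livers. The CC006 liver had 2001 CPM over 8 genes of the adrenal cortex against a median of 5.59, including Star, the mitochondrial cholesterol carrier of steroid synthesis, at 1089 CPM against at most 8.15 elsewhere. Fabp4 of adipocytes was 102 CPM there against a median of 4.57. The CC031 liver had 3600 CPM over 12 skeletal muscle genes against a median of 11.9, and the CC041 liver 861 CPM. The CC068 liver had 2054 CPM over pancreatic acinar genes against a median of 26.01. Over 7 genes of the kidney proximal tubule the livers of CC035, CC033 and CC036 had 661, 630 and 253 CPM against a median of 26.8, and Kap, the kidney androgen-regulated protein that fills the tubule, was 336, 276.5 and 153.5 CPM there against at most 61.7 elsewhere. The CC033 liver was also the highest for the sum of 6 lung epithelium genes, at 113.7 CPM against a median of 16.21. CC033 and CC036 are also the livers with the fewest counts outside Rn45s and Lars2 and the fewest total counts, respectively. The muscle and adrenal lists were added after the values were seen, and the part of other tissue in these values was not tested. Star, Kap, Lrp2 and Ttn are among the most variable genes that these sums touch.

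Co-variation was examined in pairs of genes with a known link, over log2 CPM in the 47 livers. Of 28 pairs chosen, 21 had both genes measured at more than 3 counts in at least 24 livers, and 18 of the 21 passed a Benjamini-Hochberg q of 0.05 by Pearson's r (two-sided permutation test). Since the pairs were chosen with results of these data known, the count itself is a description. Metallothioneins Mt1 and Mt2 rose together most closely, with r = 0.96 and rho = 0.97 (p = 1e-05, the smallest the permutations can give, q = 2.63e-05), and r was still 0.96 without the 2 livers farthest from the median of Mt1. Class II genes H2-Aa and Cd74 had r = 0.93, and 0.89 without CC016. Cyp4a14 and Cyp4a10 had r = 0.86, and Saa1 and Saa2 r = 0.85. Of the proliferation genes, Mki67 and Top2a had r = 0.81 at medians of 2.76 and 1.17 CPM.

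The metallothionein genes are neighbours on chromosome 8 with separate promoters, and these are shown because the pair co-varied most closely of those tested. Both are given as the 250 bases before the RefSeq transcription start, 5′ to 3′ on the plus strand of GRCm38.p6, at chr8:94178839-94179088 for Mt1 and chr8:94172368-94172617 for Mt2. Capitals mark matches on either strand to the metal response element cores TGCACNC and TGCGCNC, which occur in 10.4% and 12.5% of 32851 mouse promoters of this length. Within these 250 bases Mt1 holds 1 match and Mt2 holds 3, and bases outside them were not searched.
Mt1: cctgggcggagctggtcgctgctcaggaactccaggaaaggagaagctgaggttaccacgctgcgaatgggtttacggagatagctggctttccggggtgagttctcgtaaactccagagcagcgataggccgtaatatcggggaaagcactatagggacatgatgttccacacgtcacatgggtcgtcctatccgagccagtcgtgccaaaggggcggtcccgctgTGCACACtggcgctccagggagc
Mt2: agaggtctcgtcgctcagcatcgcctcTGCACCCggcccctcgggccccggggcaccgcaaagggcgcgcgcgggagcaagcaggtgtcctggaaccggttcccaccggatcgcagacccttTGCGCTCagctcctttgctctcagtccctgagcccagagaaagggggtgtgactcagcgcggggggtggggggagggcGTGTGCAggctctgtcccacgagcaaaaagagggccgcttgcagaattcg

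The activators and repressors of the clock's feedback loop are known to peak at opposite times of day. Arntl, the activator also called Bmal1, fell as the repressor Per2 rose, with r = -0.81 and rho = -0.83 (p = 1e-05, q = 2.63e-05), and r was between -0.83 and -0.80 with each liver left out in turn. Arntl and Dbp, an output gene of the clock, had r = -0.69. Arntl itself is weakly measured, with at most 3 counts in 18 livers and a highest value of 4.18 CPM in CC053, while Per2 ran from 8.80 CPM in CC011 to 66.3 CPM in CC068. Nr1d1 and Dbp had r = 0.46 (q = 0.00773), but rho was 0.15 (q = 0.312) and r was 0.10 without CC015, which was the lowest liver for both.

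Metabolic pairs were looser. The lipogenic genes Fasn and Scd1 had r = 0.54 (q = 0.000267). Between fatty acid and sterol synthesis the link was weak: Fasn and Sqle had r = 0.30 (q = 0.0444) and rho = 0.23 (q = 0.165), and r = 0.21 without CC021. Pck1 and G6pc, which act in gluconeogenesis, had r = 0.21 and q = 0.153, Cyp2b10 and Cyp2c55 r = 0.21 and q = 0.153, and Cyp4a14 and Vnn1 r = 0.24 and q = 0.118, so no co-variation was detectable for these 3 pairs. The male-biased genes Elovl3 and Cyp4a12a passed by r (0.41, q = 0.00566) and not by rho (0.19, q = 0.233).

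For some pairs r depended on 1 or 2 livers. Gbp2 and Igtp had r = 0.60 (q = 0.000921), but rho = 0.19 (q = 0.233), and r was 0.28 without CC016 and 0.16 without the 2 livers farthest out. For Saa2 with Lcn2 r went from 0.64 to 0.31 without the farthest livers, and for Saa2 with Orm2 from 0.53 to 0.19. Both pairs still passed by rank over all 47 livers, with rho = 0.37 (q = 0.0176) and rho = 0.36 (q = 0.0218). Ifit1 and Oasl2, type I interferon targets, held instead at r = 0.40 and 0.44 without the farthest livers. The immediate-early genes Fos and Egr1 had r = 0.43 and rho = 0.51, and the chaperones Hspa1b and Dnajb1 r = 0.61, or 0.54 without CC015.

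**Figure D3:**
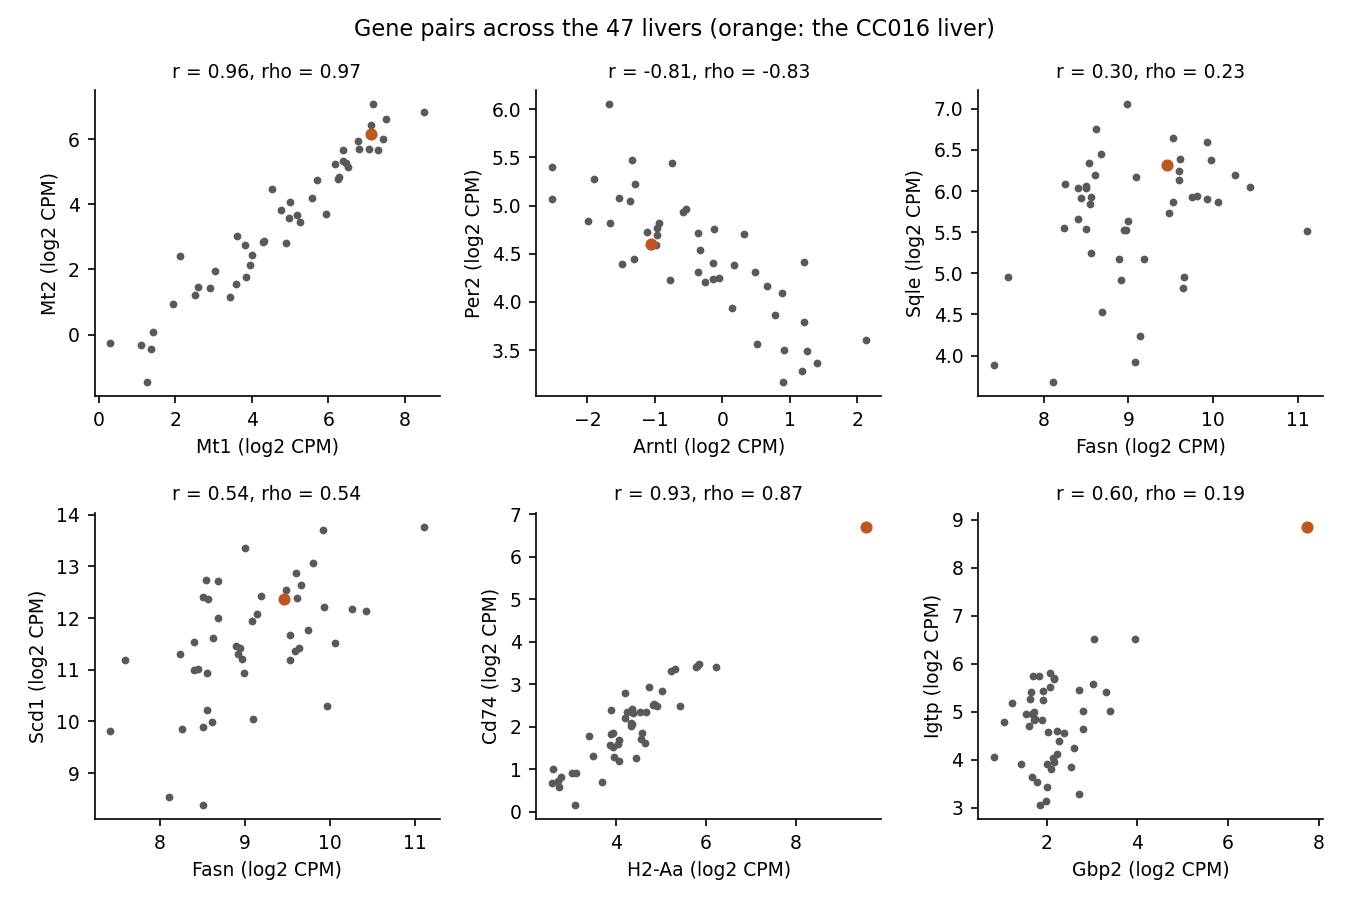
The 6 gene pairs are plotted over the 47 livers on a log2 CPM scale with 1 point per liver, CC016 in orange, and Pearson's r and Spearman's rho above each panel. Mt1 with Mt2 and Arntl with Per2 hold along the whole range, while the r of 0.60 between Gbp2 and Igtp comes with a rho of 0.19 and CC016 far from the other 46 livers.

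Groups of co-varying genes were described by clustering the 685 genes of the most variable 10% that were not set apart by 1 liver, at a mean r of 0.5 and at least 8 genes. Co-variation was the exception: the median r over all pairs of these genes was 0.00308, and 35 of the 685 genes fell into 3 groups. The first held 15 genes led by the glycerol-phosphate acyltransferase Gpat4, with Zpr1, Tbc1d8, Gde1, Kdsr, Por and Pfkfb1 (median r 0.60), and was highest in CC015 (1.90 above the gene means on the log2 scale), CC055 (1.58) and CC021 (1.04). The second held 12 genes led by Cubn, Kap, Slc34a1, Napsa and Slc22a12 (median r 0.78), most of them genes of the kidney tubule, and was highest in CC033 (3.72), CC035 (3.46) and CC036 (2.26). Its mean had r = 0.45 with the Rn45s share and -0.55 with the log10 of the counts outside Rn45s and Lars2. The third held 8 genes led by the clock genes Per2, Wee1 and Ciart with Nampt, the NAD-salvage enzyme, and Alas1, the first enzyme of heme synthesis (median r 0.56). It was highest in CC029, CC068 and CC024 (1.11, 1.07 and 0.997) and lowest in CC046, CC053 and CC004 (-1.51, -1.29 and -1.02). Without the 3 shallowest livers CC033, CC036 and CC029, 1 group with 13 genes was found in place of 3 with 35, so the number of groups rests on them.

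With the genes set apart by 1 liver kept in, 185 of 878 genes fell into 10 groups, as the plot of group means shows. The largest held 71 genes led by Cybb, Nckap1l and Pld4, genes of phagocytes, and was 3.21 above the mean in CC016 with the next liver, CC004, at 0.82. A group of 17 interferon-response genes led by Irgm1, Gbp6 and Ifit2 was high in CC016 (2.59), CC024 (1.44) and CC012 (1.13) and low in CC043 (-1.17). A group of 14 muscle genes led by Des was high in CC031 (4.41) and CC041 (2.86), and 12 genes with Zbtb16, Fkbp5 and Lpin1 in CC015 (2.08). Small nucleolar RNAs (Snora28, Snora3 and Snord104 among 8 genes) formed a group spanning -1.95 in CC011 to 1.86 in CC033. A group of 8 genes led by the sterol genes Sqle, Idi1, Cyp51, Nsdhl and Msmo1 ran from -1.22 in CC029 to 1.12 in CC019. The clock group was not among the 10. Without CC016, 11 groups with 127 genes were found, among them a group led by Usp18, Ifit1 and Rsad2, a sterol group, a clock group and 1 with Rn45s and Lars2, and none led by phagocyte genes.

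**Figure D4:**
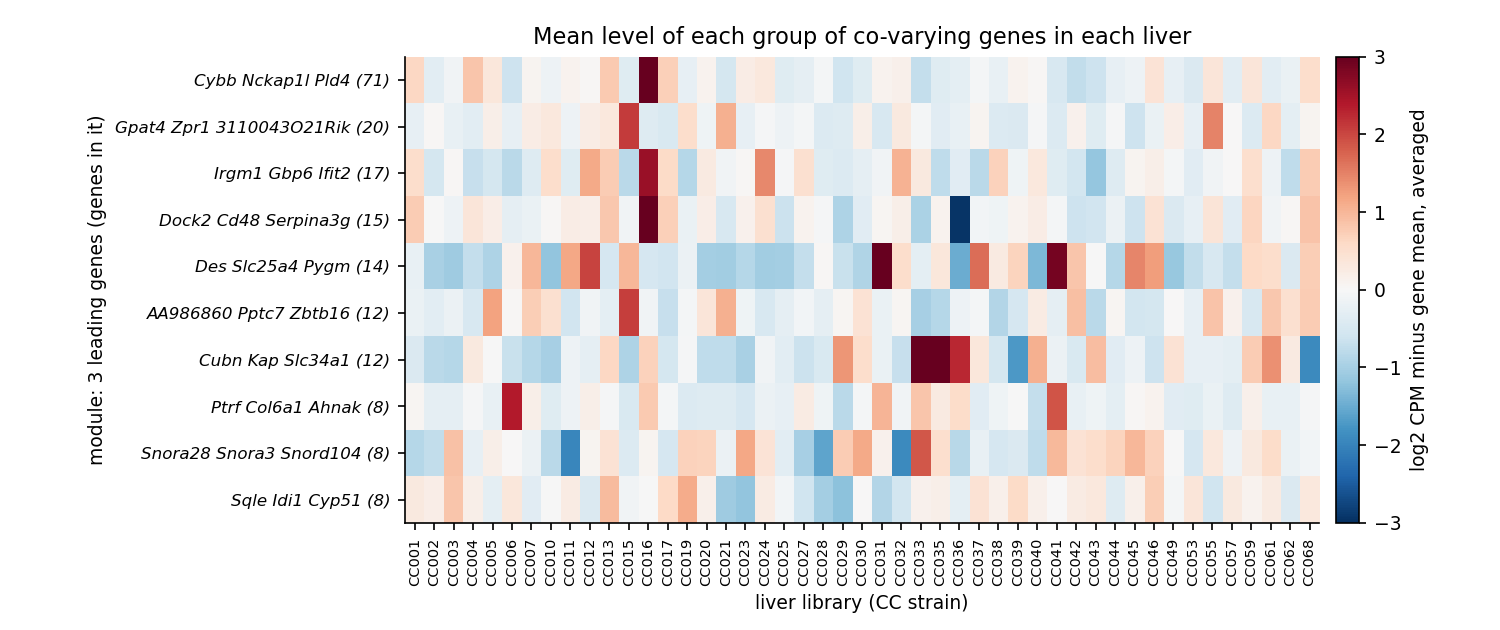
Mean of each group of co-varying genes in each liver, as log2 CPM minus each gene's own mean (red above, blue below, colour limited to 3 on either side), for the 10 groups found with genes set apart by 1 liver kept in. Rows name 3 leading genes and the number of genes, and the darkest red cells fall in CC016 for the rows led by Cybb and Dock2, CC031 and CC041 for muscle genes and CC033 and CC035 for kidney genes, and the darkest blue cell in CC036 for the row led by Dock2.

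Ifit1 and Ciart are shown as examples of interferon and clock genes whose promoters held a motif match, and of the interferon genes Ifit3, Irgm1, Irgm2, Ddx60 and Igtp held one too. Each is the 250 bases before the RefSeq start in GRCm38.p6, written 5′ to 3′ on the strand of the gene. Capitals mark matches on either strand to the core of the interferon-stimulated response element (TTTC, any 2 bases, TTTC) for Ifit1 (chr19:34640639-34640888, plus strand) and to the E-box CACGTG for Ciart (chr3:95882229-95882478, minus strand).
Ifit1: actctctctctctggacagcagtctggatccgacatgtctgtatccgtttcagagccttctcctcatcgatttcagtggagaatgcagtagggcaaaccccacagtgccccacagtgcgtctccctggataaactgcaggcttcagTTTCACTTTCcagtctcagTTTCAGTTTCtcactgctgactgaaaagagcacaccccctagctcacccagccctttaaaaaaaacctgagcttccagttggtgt
Ciart: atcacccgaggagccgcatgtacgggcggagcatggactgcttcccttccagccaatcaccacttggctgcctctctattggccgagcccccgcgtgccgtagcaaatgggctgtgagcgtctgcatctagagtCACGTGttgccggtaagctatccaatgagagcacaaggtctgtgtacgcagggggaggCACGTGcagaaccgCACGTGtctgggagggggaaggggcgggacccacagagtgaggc
Ifit1 holds 2 matches and Ciart 3. The interferon motif was in the promoters of 6 of 11 interferon genes with an entry and of 3.46% of all genes with an entry. The E-box was in 1 of 7 genes of the clock set with an entry, against 6.86% of all genes. These 7 were Ciart, Dbp and Nr1d1, and Klf13, Nampt, Nmrk1 and Alas1, which were taken from the co-varying group of Per2. The sterol motif TCACNCCAC was in 0 of 7 sterol genes with an entry and in 1.22% of all genes. The D-box TTATGNAA, also searched in the clock set, is in 3.63% of all genes. A match or its absence in this window is a description of the letters only.

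Whether a gene's differences between livers recurred in other tissue was tested with the kidney and the lung of the same 47 mice, samples that played no part in choosing the variable genes. Liver values rose with kidney values in 1361 of 8296 genes measured in both, which is 16.4% (correlation of rank inverse normal values, permutation test, q at most 0.05), and with lung values in 726 of 8296, which is 8.75%. In the most variable 10% the share was 33.8% in kidney (239 of 707) and 20.1% in lung (145 of 723). In the least variable 10% it was 6.75% (59 of 874) and 2.40% (21 of 874). The share of genes whose liver values recurred was therefore higher among genes that vary more in liver, and without the genes set apart by 1 liver it was 33.3% in kidney. The median CV was 0.133 in the least and 0.755 in the most variable 10%. Counting error alone would give a median CV of 0.109 over all tested genes. The part of counting error in the lower share among steady genes was not tested. Of the 20 steadiest genes, all tested in both tissues, 0 rose with kidney and 0 with lung by this permutation test (2 and 2 at an unadjusted p under 0.05). Of these genes 1110037F02Rik passed in the opposite direction in lung (r = -0.55).

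Of the 25 genes with the largest spread in liver, 12 could be tested in kidney, of which 4 passed, and 11 in lung, of which 3 passed. These counts stand beside 33.8% and 20.1% of the most variable 10% and 16.4% and 8.75% of all genes. Col5a2 rose with kidney (r = 0.59, q = 0.00176) but r was 0.06 in lung (q = 0.864), where its mean is 147.8 CPM. The long noncoding RNA 9430037G07Rik had r = 0.72 with kidney, and the pseudogene Gm6548 r = 0.62 with kidney and 0.62 with lung. Mt1 and Cyp4a10 had r = 0.27 (q = 0.195) and 0.04 (q = 0.869) with kidney. Lcn2 had r = 0.29 with kidney (q = 0.159) and 0.24 with lung (q = 0.32).

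The same counts were taken for gene lists. Heat shock chaperones passed in 9 of 12 genes in kidney and 8 of 12 in lung, with Hsph1 at r = 0.87 and 0.79. Type I interferon genes passed in 11 of 19 and 14 of 22, interferon-inducible GTPases in 5 of 8 and 6 of 8, and MHC class I and peptide loading genes in 7 of 11 in both. Without the CC016 mouse, kidney counts were 7 of 12 chaperones, 11 of 19 interferon genes, 4 of 8 GTPases and 7 of 11 class I genes. Clock genes passed in 5 of 14 in each tissue, with Per2 at r = 0.63 in kidney and 0.54 in lung. Metabolic and secretory lists differed among themselves. PPAR-alpha targets passed in 9 of 22 in kidney and 3 of 17 in lung, and glutathione transferases in 5 of 13 and 5 of 16. Complement genes passed in 7 of 15 and 7 of 16, and amino acid catabolism in 3 of 23 and 0 of 21. Against the 16.4% of all genes in kidney and 8.75% in lung, 0 of 16 lipogenic genes passed in either tissue (2 in kidney and 1 in lung rose at an unadjusted p under 0.05), and 1 passed in the opposite direction in kidney. Glucose and glycogen genes passed in 0 of 13 in kidney and 0 of 10 in lung (3 and 0 unadjusted), and hepatocyte markers in 0 of 11 and 0 of 10 (0 and 0 unadjusted). Immediate-early genes passed in 0 of 12 in kidney and 1 of 12 in lung (4 and 2 unadjusted), and sterol genes in 4 of 19 and 0 of 19 (7 and 1 unadjusted). The lists are small for these shares, and differences between lists were not tested. Of the co-varying groups, the clock group had 4 of 8 genes passing in each tissue, the Gpat4 group 3 of 15 in kidney and 0 of 14 in lung, and the kidney-gene group 0 of 12 in both.

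**Figure D5:**
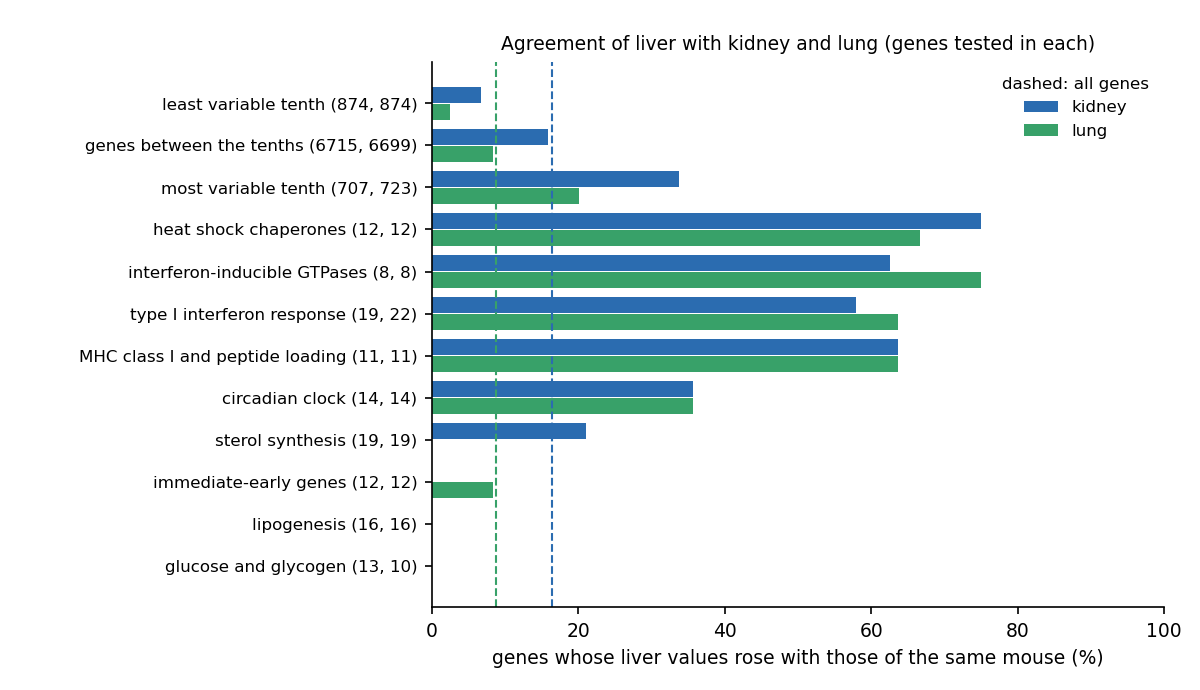
Percentage of genes whose liver values rose with those of the kidney (blue) or lung (green) of the same mouse at q of at most 0.05, by relative CV in liver and for 9 gene lists, with the numbers tested in kidney and lung in brackets and dashed lines at 16.4% and 8.75% for all genes. Chaperone, interferon and MHC class I genes reach 57.9% to 75%, and lipogenic and glucose genes have no bar.

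The closest agreement among variable genes included several whose sequence recurs in the genome. In kidney the highest r after Hsph1 were those of Cox7c (0.87), a subunit of cytochrome oxidase, Rpl37 (0.87), a ribosomal protein, and the class I gene H2-T23 (0.86), with 72.1%, 76.3% and 66.8% of their windows unique. In lung they were Rpl37 (0.90), Sfi1 (0.85) and the aldo-keto reductase Akr1e1 (0.85), the latter with 98.6% of its windows unique. Rpl37, otherwise a gene of every cell, ran from 0.246 through 14.02 to 70.6 CPM in liver. In the most variable 10%, genes with under 80% of windows unique passed in kidney in 38 of 68 cases (55.9%) and the others in 183 of 594 (30.8%), and in lung in 27 of 55 (49.1%) and 100 of 615 (16.3%). Such genes made up 11.1% of the most variable 10% with a known position, 6.19% of the middle and 7.63% of the least variable 10%. The part of alignment in these values was not tested.

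The spread itself was compared between tissues for genes with at least 10 CPM in both, by permuting tissue within mouse. The SD of log2 CPM was larger in liver than in kidney in 519 of 4269 genes, which is 12.2%, and smaller in 140, which is 3.28%. Against lung it was larger in 826 of 4144 genes, which is 19.9%, and smaller in 87, which is 2.1%. Over these genes the median SD was 0.28 in liver and 0.24 in kidney, and 0.28 in liver and 0.23 in lung. The livers also include the libraries with the fewest informative counts, and without the 3 shallowest (CC033, CC036 and CC029) the larger counts were 399 and 739. Of the genes with larger spread in liver than kidney, those furthest apart were Cyp2a4 (SD 3.22 against 1.60), C730036E19Rik, Mt1 (2.05 against 0.56), Slc3a1, an amino acid transporter subunit (1.75 against 0.35), and Vnn1, a pantetheinase (1.82 against 0.44). Against lung they were Col5a2 (2.14 against 0.37), Krt23, Serpine2, Ttn and Scara5. Ttn is on the skeletal muscle list and reached 1456 CPM in the CC031 liver against a median of 4.90. Of 2 kidney proximal tubule markers tested against kidney, 2 had larger spread in liver. The part of other tissue in these spreads was not tested.

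Of the genes with smaller spread in liver than in kidney, those furthest apart included several secreted products of the liver. Azgp1, a secreted zinc-binding glycoprotein, had an SD of 0.25 in liver and 3.14 in kidney, transthyretin Ttr 0.31 and 2.63, and angiotensinogen Agt 0.38 and 2.27. Against lung, the 5 genes furthest apart were of mixed kinds. The epithelial keratin Krt4 had 2.17 in liver and 5.12 in lung, the muscle gene Neb 0.86 and 2.40, and the class II pseudogene H2-Ea-ps 3.06 and 4.40. Alb had 0.42 and 1.80, and Cps1 of the urea cycle 0.32 and 1.59. Neb had similar means in both tissues (201.1 CPM in liver and 211.7 in lung). The liver products were abundant in liver and low in the other tissue, with Alb at a mean of 44320 CPM in liver and 93.6 in lung and Ttr at 3257 in liver and 108.8 in kidney. Of 7 hepatocyte markers tested against kidney, 5 had smaller spread in liver and 0 larger.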

How the data were processed

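RNA from liver, kidney and lung of the same 47 mice was sequenced after ribosomal RNA depletion as 50-base single-end reads. The authors aligned reads to strain-specific pseudo-genomes built on mm9 with STAR 2.5.3a and deposited expected counts, TPM and FPKM per gene from RSEM (version not given in the sources used here). Because reads were uniquely aligned, levels of near-identical genes are uncertain. The deposited expected counts were rounded, and CPM was scaled by TMM (edgeR 4.0.16, R 4.3.3). The deposited TPM values entered only as an alternative, and the deposited FPKM values were not used for any result. Genes over 1 CPM in at least 24 of 47 livers were tested. Named genes had a mean of at least 10 CPM and were the 25 with the largest relative CV not set apart by 1 liver, the 5 largest set apart by 1 liver and the 20 smallest. To these were added list members and markers, the leading 5 genes of each co-varying group, the chosen pairs and, per direction, the 5 genes with the largest difference in spread between tissues. Other genes given as examples were chosen after their values were seen.

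The genes, lists and pairs were chosen with earlier results of these data known, and the muscle, adrenal and glucocorticoid lists were added after the values were seen. Tissues were paired because they came from the same mouse. Agreement between tissues used Pearson's r of rank inverse normal CPM, and spread used log2 CPM with a prior of 2, each with 100000 permutations and Benjamini-Hochberg adjustment. The p-values give how often shuffling mice, or swapping tissue within mouse, reached the observed value. With 1 mouse per strain they do not separate strain from individual mouse. The share of the 50-base windows of a transcript found once in the genome came from NCBIM37. Scripts were tested on simulated data: 64.5% of 200 genes simulated to agree between tissues at 0.7 were recovered among 8775, and 63.3% of 109 with a 2-fold SD among 4728. Some named genes are not reported here.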

Additional observations from a re-analysis of the deposited data

How the results depend on the processing

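Of the 878 genes of the most variable 10%, between 515 and 878 were shared under the alternatives tried. The 515 came from asking for more than 1 CPM in all 47 livers, which left fewer genes to test. The least variable 10% depended more on the scaling: 262 of its 878 genes were shared when total counts were used without TMM, and 496 when the median absolute deviation of log2 CPM replaced the CV. Of the 20 steadiest genes 8 left the set with total counts (Ctnna1, Zdhhc5, Eef2, 1110037F02Rik, Snrnp200, Laptm4a, Nedd4 and Maea). Agreement counts fell to 802 in kidney and 366 in lung where both tissues had to average 10 CPM or more, which tests fewer genes. With a mean of at least 50 CPM, spread was larger in liver in 105 genes and smaller in 52 against kidney, and larger in 158 and smaller in 21 against lung, again over fewer genes. With DESeq2 size factors 244 genes fell with the Rn45s share, and without the 3 shallow livers 93 rose and 260 fell. The cause was not tested.

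Groups of co-varying genes were the least stable result, at 3 groups with 35 genes as reported. A limit of r = 0.6 gave 1 group with 10 genes, r = 0.4 gave 9 with 120, the most variable 5% 1 with 11, and DESeq2 size factors 6 with 59. Spearman's rho gave 3 with 28, led by Pim3, Kap and Usp18, so the clock group was not among them. Keeping the genes set apart by 1 liver gave 10 with 185, or 11 with 127 without CC016, and leaving out the 3 shallow livers gave 1 with 13. The cause was not tested. Of the gene pairs, 18 passed as reported, 14 on rank inverse normal values and 17 without the shallow livers.

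The spread test kept each mouse as a block, since the tissues pair by mouse. Without that pairing, spread was larger in liver in 425 genes and smaller in 125 against kidney, and larger in 765 and smaller in 79 against lung. Of 105 values of the gene pairs under the alternatives, 100 kept their call, 5 no longer passed and 0 passed with the sign reversed. The agreement, spread and group results were compared as counts, so the direction of single genes was not compared. Several of these alternatives, such as leaving out single livers, were chosen after seeing the data. Depth limits genes near 1 CPM most, where 3 counts in the shallowest liver stand for 2.94 CPM.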

Other observations

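The first principal component of the liver values held 7.33% of the variance and the second 5.91%. The CC016 liver was highest on the second. The first had r = 0.58 with the Rn45s share and -0.68 with the log10 of the counts outside Rn45s and Lars2, and CC033 was highest on it.

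Genes below the expression limit could still be abundant in single livers. Sult3a1, a sulfotransferase known from female liver, had a median of 0 CPM and 1850 CPM in CC033, and Cyp2b9, a P450 of female liver, had a median of 0.133 CPM and 152 CPM in CC024. Sdr9c7, a short-chain dehydrogenase, gave 0 counts in the CC039 liver, where its median level would give 296 counts, and 91 counts in the lung of that mouse against a lung median of 11.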
